A study of Mus musculus with 4 samples.

Results

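Forkhead transcription factors were followed in the cochlear duct of the embryonic mouse, the epithelial tube that forms the hearing organ. The 8 genes described here are *Foxa1*, *Foxa2*, *Foxd3*, *Foxc1*, *Foxc2*, *Foxp1*, *Foxp2* and *Foxo1*, out of 29924 gene names on the array. Every probe that carried one of these symbols was taken, which gave 16 probes, and all 8 genes had at least 1 probe bright enough to be tested. The genes were chosen by their measured log2 ratios of mutant to control in these arrays, which were already known. These ratios are therefore given as a description without a test.

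The microarrays compared *Sox2-Tbx2LOF* mutants, *Sox2*(creERT2);*Tbx2*(fl/fl), with controls that carried *Tbx2*(fl/n.d.) alleles, where n.d. is the submitters' own entry, and that the methods call cre-negative. In the mutants, tamoxifen allows a Cre recombinase made from the *Sox2* locus to delete *Tbx2* in *Sox2*-expressing cells, which include the prosensory progenitors of the duct and glial precursors. Mutants and controls were NMRI embryos at E14.5, and the pregnant dams of both were given 4 mg of tamoxifen by mouth as 1 pulse at E12.5. Cochlear ducts were pooled by sex after the spiral ganglion had been dissected away. Each of the 4 two-colour arrays carried 1 mutant and 1 control pool, with females on arrays 1 and 2 and males on arrays 3 and 4. Dyes were swapped within each sex, so that mutant RNA carried Cy5 on arrays 1 and 3 and Cy3 on the other 2. The control pools lacked the creERT2 allele, so the effect of that allele and the effect of *Tbx2* loss cannot be told apart.

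Forkhead factors bind DNA through a winged-helix domain. FOXA1 and FOXA2 are pioneer factors that open closed chromatin in endoderm and in the floor plate of the neural tube. FOXD3 keeps neural crest cells undifferentiated and marks the glial precursors that accompany cranial nerves. FOXC1 and FOXC2 act in mesenchyme and blood vessels, FOXP1 and FOXP2 are repressors best known from neurons, and FOXO1 is held in the cytoplasm by insulin and AKT signalling.

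Signal was even across the hybridisations. Between 69.2% and 72.0% of the gene spots of a channel stood well above background, and no gene spot was saturated. All 16 cochlear epithelium markers were detected well above background in each of the 8 pools. *Tbx2* itself differed by -0.12 ± 0.10 on the log2 scale between mutant and control (SD, n = 4 arrays; limma adjusted p = 0.124). On sections at this stage the authors report that recombined cells had lost TBX2 protein. The pools hold whole ducts, and where the probe lies relative to the deleted part of *Tbx2* was not looked up. *Sox2* differed by 0.01 ± 0.18 (SD, n = 4; limma adjusted p = 0.935). One *Esr1* probe gave signal above background in 4 of 4 mutant and 0 of 4 control pools and was at least 4.24-fold higher in mutants. creERT2 contains a part of an oestrogen receptor, the kind of protein that *Esr1* encodes. The 3 other *Esr1* probes were not well above background in any pool.

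The oligonucleotides that measured the genes with the largest differences are shown in part, because their identity decides how the values can be read. For *Foxa2*, 2 probes lie side by side at chr2:147868669-147868728 and chr2:147868614-147868673 of the mm9 build, both on the minus strand, and share 5 bases, written in capitals. The *Foxa1* probe lies at chr12:58641764-58641823 on the minus strand and the *Foxd3* probe at chr4:99325170-99325229 on the plus strand. For each probe 30 of its 60 bases are given, 5′ to 3′.
*Foxa2*, last bases of the first probe: gctttatttatggcttataaatgtgTGTTC
*Foxa2*, first bases of the second probe: TGTTCtggctagaatggccagaattccaca
*Foxa1*, first bases: gcatggtttactccttttctttacagccga
*Foxd3*, first bases: ctctgcgcagttttatctgagaaaaagaat

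The 3 genes that stood lower in mutants are printed with the 250 bases before their start in the RefSeq table of build GRCm38.p6. These are chr12:57546112-57546361 on the minus strand for *Foxa1*, chr2:148046970-148047219 on the minus strand for the most upstream of 3 *Foxa2* starts, and chr4:99656049-99656298 on the plus strand for *Foxd3*. Capitals mark the forkhead word TGTTTAC on either strand, where the sixth letter could be A or G and the last letter C or T, and where matches can overlap.
*Foxa1* upstream: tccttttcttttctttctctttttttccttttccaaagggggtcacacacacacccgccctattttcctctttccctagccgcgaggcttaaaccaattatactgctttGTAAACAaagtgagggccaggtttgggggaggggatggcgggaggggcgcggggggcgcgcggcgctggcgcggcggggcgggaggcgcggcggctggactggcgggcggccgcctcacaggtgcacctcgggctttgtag
*Foxa2* upstream: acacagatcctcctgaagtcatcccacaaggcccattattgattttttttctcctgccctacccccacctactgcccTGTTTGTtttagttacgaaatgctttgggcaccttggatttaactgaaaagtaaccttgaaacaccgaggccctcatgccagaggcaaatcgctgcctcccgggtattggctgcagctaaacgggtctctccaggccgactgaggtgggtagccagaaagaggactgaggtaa
*Foxd3* upstream: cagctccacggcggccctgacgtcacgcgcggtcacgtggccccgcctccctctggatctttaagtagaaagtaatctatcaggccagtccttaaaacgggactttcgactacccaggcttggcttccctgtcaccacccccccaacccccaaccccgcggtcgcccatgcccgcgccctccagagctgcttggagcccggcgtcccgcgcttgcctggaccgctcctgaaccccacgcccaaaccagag
The *Foxa1* window holds 1 such word, GTAAACA, whose first base lies 141 bases before the start. The *Foxa2* window holds 1, TGTTTGT, 173 bases before the start, while the windows of the other 2 *Foxa2* starts and of *Foxd3* hold 0. The T-box word GGTGTGA, searched on both strands, occurs in 0 of the 10 windows found for 6 of the 8 genes. Of all 32851 windows of this length, 15.7% hold a forkhead word and 3.33% hold the T-box word. A word match describes the letters in the window and not the binding of a factor.

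*Foxd3*, the neural crest and glial precursor factor, was lower in the mutant on each of the 4 arrays. Its level, the normalised fluorescence of the probe on the log2 scale, was 7.93, 7.53, 7.75 and 7.70 in the mutant pools of arrays 1 to 4 and 9.11, 8.45, 9.20 and 8.86 in the matching control pools. The lowest control pool lay above the highest mutant pool, and all 8 measurements were well above background. The ratio of mutant to control was -1.18 on array 1, -0.91 on array 2, -1.45 on array 3 and -1.16 on array 4. The mean was -1.17 ± 0.22 on the log2 scale (SD, n = 4), a 2.26-fold lower level. This size depended on the background correction, since the ratio was -1.60 with the scanner's processed signals. Within 1 dye the raw signals told the same order. In Cy3 the mutant pools read 99.5 and 131 fluorescence units against 410 and 413 in controls, and in Cy5 they read 284 and 342 against 429 and 575. As these are bulk pools, fewer cells of a type and less RNA per cell cannot be told apart.

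*Foxa2*, the floor plate and endoderm pioneer factor, was visible in controls and not well above background in any mutant pool. Its first probe read 7.85, 7.47, 8.04 and 7.64 in the control pools of arrays 1 to 4 and 6.49, 6.73, 6.54 and 6.69 in the mutant pools, on the log2 scale of levels. The mutant values lie around the lowest signal that counted as well above background, which was between 6.52 and 6.62 in the 8 pools. A bound can therefore be given, and *Foxa2* was at least 2.15-fold lower in mutants, with mean levels of 6.61 in mutant and 7.75 in control pools. The measured ratios were -1.36, -0.73, -1.50 and -0.96 on arrays 1 to 4, with a mean of -1.14 ± 0.36 (SD, n = 4). By dye the mean was -1.43 with the mutant in Cy5 and -0.85 with the mutant in Cy3, and the SD includes this difference. Raw Cy3 signals were 44.1 and 49.5 units in mutant pools against 154 and 170 in control pools, over a Cy3 background of 25 units. In Cy5, over a background of 85 to 95 units, they were 118 and 121 against 218 and 239.

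The second *Foxa2* probe was dimmer. It was well above background in 1 of 4 control pools and in 0 of 4 mutant pools, and it was not tested. Its ratio was lower on all 4 arrays, with a mean of -0.34 ± 0.06 (SD, n = 4). Its bound was at least 1.12-fold lower. As 7 of its 8 measurements lay at background, these values carry little weight.

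*Foxa1*, the second FOXA factor, had a smaller difference in the same direction. Control levels were 7.30, 7.08, 7.46 and 7.32 and mutant levels 6.54, 6.84, 6.81 and 6.89 on arrays 1 to 4. The groups did not overlap, although only 2 of the 4 mutant pools were well above background. The ratios were -0.76, -0.24, -0.65 and -0.43, with a mean of -0.52 ± 0.23 (SD, n = 4), or 1.44-fold lower. This is short of the 1.5-fold change that a call required here. By dye the mean ratio was -0.71 with the mutant in Cy5 and -0.34 with the mutant in Cy3. The size and the call depended on the background correction, since the ratio was -1.46 with the scanner's processed signals, -0.77 with a smaller normexp offset and -1.06 in the series values, and *Foxa1* was called lower in each of the 3.

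**Figure D1:**
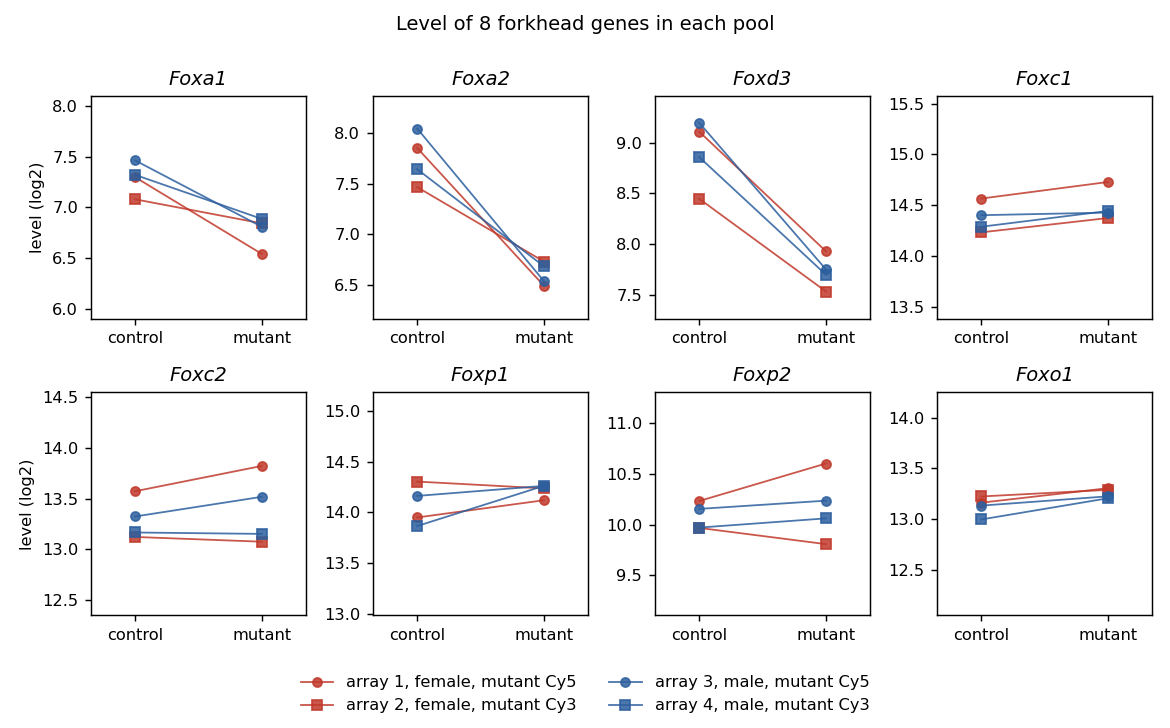
Level of the 8 forkhead genes in each pool, as normalised log2 fluorescence of the probe that stands for the gene. Lines join the control and the mutant pool of 1 array, colours mark sex (red female, blue male), symbols mark the mutant's dye, and every panel spans the same log2 range. *Foxa1*, *Foxa2* and *Foxd3* are lower in all 4 mutant pools than in any control pool, and the pools of the other 5 genes overlap.

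Read against all genes, a call meant an adjusted p under 0.05 by limma and a change of at least 1.5-fold. By this rule 2 of the 8 genes, *Foxa2* and *Foxd3*, were called lower and 0 were called higher, where 0.309% of the 21042 genes tested were called lower and 0.133% higher. The mutant pools all lay below the control pools for 3 of the 8 genes and for 2.54% of the genes tested, and all above them for 0 of the 8 genes and 1.74% of the genes tested. The ratio was below 0 on all 4 arrays for 3 of the 8 genes and for 9.31% of the genes tested. These shares only describe the selection, since the same contrast was used to choose the genes. *Foxa2* met the brightness filter through its 4 control pools alone, so its call could hardly have been higher. When all 8 measurements had to be well above background, *Foxa2* was not tested and only *Foxd3* was called.

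The mesenchymal pair did not separate mutants from controls. *Foxc1* (chr13:31902423-31902482, plus strand, mm9) had levels of 14.73, 14.37, 14.43 and 14.44 in mutant pools and 14.56, 14.23, 14.40 and 14.29 in control pools. It was slightly higher in the mutant on all 4 arrays, with a mean ratio of 0.12 ± 0.06 (SD, n = 4), but the groups overlapped. *Foxc2* (chr8:123642693-123642752, plus strand) had levels of 13.82, 13.08, 13.52 and 13.15 in mutant pools and 13.57, 13.12, 13.32 and 13.17 in control pools. Its ratio was above 0 on the 2 arrays with the mutant in Cy5 and below 0 on the 2 with it in Cy3, with a mean of 0.10 ± 0.15 (SD, n = 4).

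*Foxp1* was measured by 5 probes, of which 4 exceeded background clearly in each of the 8 pools and 1 in none. The brightest probe (chr6:98880084-98880143, minus strand) is printed because it ends on the gene's stop codon, shown in capitals, and so reads the coding sequence.
*Foxp1*: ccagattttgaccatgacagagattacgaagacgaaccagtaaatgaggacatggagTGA
Its levels were 14.12, 14.24, 14.26 and 14.26 in mutant pools and 13.95, 14.30, 14.16 and 13.86 in control pools. The groups overlapped, and the ratio was 0.15 ± 0.19 (SD, n = 4). The 3 other bright probes gave mean ratios of 0.08 ± 0.04, 0.15 ± 0.25 and 0.03 ± 0.13 (SD, n = 4 each), so the 4 means lay between 0.03 and 0.15.

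*Foxp2*, the paralogue linked to vocal learning, had 3 probes above the filter. The probe that stands for the gene (chr6:15391821-15391880, plus strand) had levels of 10.60, 9.81, 10.24 and 10.06 in mutant pools and 10.23, 9.97, 10.16 and 9.97 in control pools. Its ratio was 0.10 ± 0.22 (SD, n = 4), with 1 of 4 arrays below 0. The other 2 probes gave 0.14 ± 0.12 and -0.03 ± 0.08 (SD, n = 4 each).

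For *Foxo1*, the factor under insulin and AKT control, the brightest probe (chr3:52150183-52150242, plus strand) had levels of 13.30, 13.29, 13.22 and 13.20 in mutant pools and 13.16, 13.22, 13.13 and 13.00 in control pools. Its ratio was 0.13 ± 0.06 (SD, n = 4) and above 0 on all 4 arrays. A second probe (chr3:52153289-52153348) gave 0.03 ± 0.09 (SD, n = 4), with 2 of 4 arrays below 0, both with the mutant in Cy5. The 2 probes thus differed in how many arrays stood higher.

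**Figure D2:**
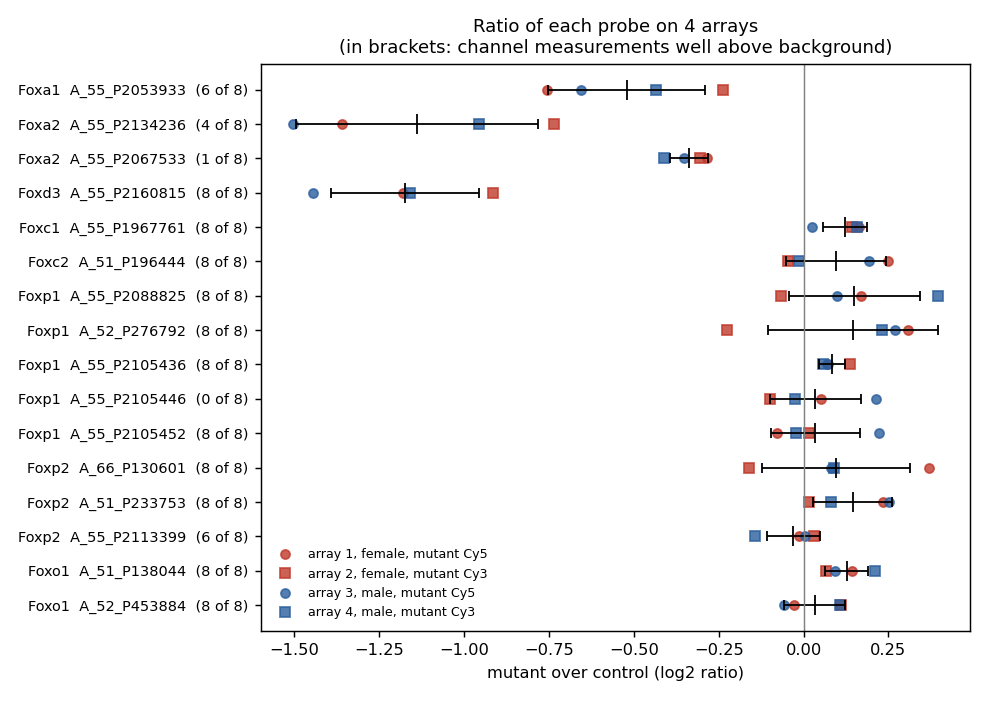
Ratio of mutant to control on the log2 scale for all 16 probes of the 8 genes, with 1 symbol per array and the mean ± SD of the 4 arrays in black. Brackets give how many of the 8 channel measurements were well above background. The probes of *Foxa1*, *Foxa2* and *Foxd3* lie below 0 on every array. The means of the other 12 probes lie between -0.03 and 0.15, and 4 of these probes, 1 each of *Foxc1*, *Foxo1*, *Foxp1* and *Foxp2*, lie above 0 on every array.

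The pool with the highest level was the same for *Foxc1*, *Foxc2*, *Foxp2* and *Foxo1*, by the probe that stands for each gene. It was the mutant pool of array 1, from females and labelled with Cy5, with 14.73, 13.82, 10.60 and 13.30 on the log2 scale. The mean log2 level of 13 periotic mesenchyme markers was also highest in that pool, at 13.22, against 12.92 to 13.17 in the other 7 pools. The same pool was also highest in the mean log2 level of the cochlear epithelium markers, the other forkhead genes, the ventral midline genes and the targets of FOXO factors. The part of mesenchymal tissue in these levels was not tested.

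Sex was a factor of the design that had not been used to choose the genes. The difference between mutant and control did not differ between females and males for any of the 8 genes by limma (adjusted p = 1.00 for each), as for all genes tested, where 0 of 21042 passed. At an unadjusted p under 0.05, 1 of the 8 genes and 2.65% of all genes passed. This gene was *Foxd3*, with a mean log2 ratio of -1.05 in females and -1.30 in males. The difference between these was 0.26, with a 95% interval from 0.07 to 0.44 (limma unadjusted p = 0.0122). *Foxa2* stood at -1.05 in females and -1.23 in males, a difference of 0.18 with an interval from -0.0039 to 0.37. *Foxp1* stood at 0.05 in females and 0.25 in males, a difference of -0.20 with an interval from -0.47 to 0.07. With 2 arrays per sex the intervals remain wide, and they do not show that the sexes respond alike.

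The level itself, over mutants and controls together, was also compared between female and male pools with the array as a block. Of the 8 genes 0 passed the adjusted threshold, where 0.0618% of all genes did. *Foxa1* alone passed at an unadjusted p under 0.05, with 3.36% of all genes. It was lower in females by 0.18 on the log2 scale, that is -0.18 ± 0.07 (SE; limma unadjusted p = 0.0379, adjusted p = 1.00).

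The rest of the forkhead family on the array was read for comparison. Of 35 other forkhead genes 26 were bright enough to be tested, and 0 were called in either direction. Their median log2 ratio was 0.012, beside a median of 0.0024 over all genes tested. By adjusted p alone 3 of the 26 were lower and 0 higher, where 2.92% of all genes were lower and 2.26% higher by that rule. *Foxn4*, a factor of retinal and spinal progenitors, fell by 0.29 (limma adjusted p = 0.00576). *Foxq1* fell by 0.20 (adjusted p = 0.0400), and *Foxm1*, which drives genes of mitosis, fell by 0.17 (adjusted p = 0.0333). Each of the 3 was lower on all 4 arrays.

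*Foxi1*, *Foxi2* and *Foxi3* belong to early ear development and ion transport in the ear. *Foxi1* differed by 0.02 ± 0.06 (SD, n = 4; limma adjusted p = 0.817) and *Foxi3* by -0.08 ± 0.05 (SD, n = 4; limma adjusted p = 0.255). *Foxi2* was not bright enough to be tested. *Foxa3*, the remaining FOXA gene, was not bright enough either.

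**Figure D3:**
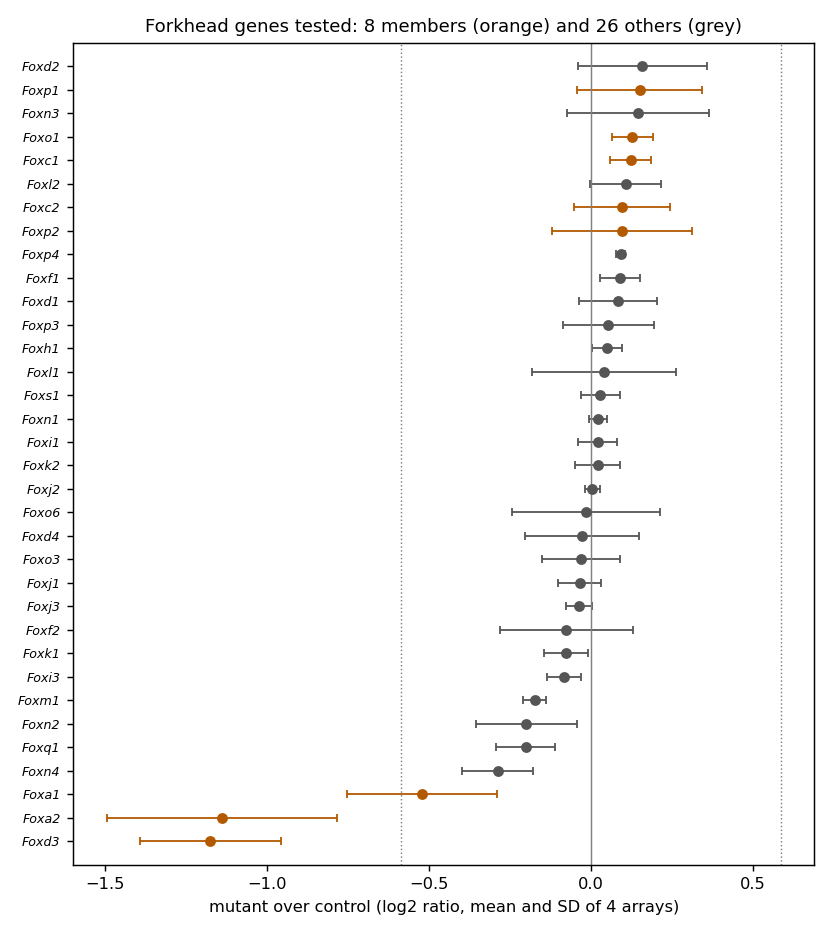
Mean log2 ratio of mutant to control with SD over 4 arrays for forkhead genes, the 8 described here in orange and 26 others in grey. Dotted lines mark 1.5-fold. *Foxa2* and *Foxd3* lie beyond the lower line, *Foxa1* just inside it, and no other forkhead gene plotted passes either line.

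Genes that work with FOXA factors in other tissues were read next. Of 9 genes of the ventral midline 6 were tested. *Nkx6-1*, a homeobox gene of the ventral neural tube, was higher by 0.19 (limma adjusted p = 0.0236), on 4 of 4 arrays. *Spon1*, which encodes the floor plate protein F-spondin, was lower by the fit at -0.16 ± 0.21 (SD, n = 4; adjusted p = 0.0464), with 2 of 4 arrays below 0. *Shh*, the signal of the floor plate, was not bright enough to be tested. Of 13 endodermal targets of FOXA 5 were tested, and 1 of them passed. This was *Ttr*, the carrier of thyroxine, which fell by 0.28 (adjusted p = 0.00611) and was lower on 4 of 4 arrays. *Alb*, *Afp* and 6 others of that list were not bright enough to be tested.

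Targets and regulators of the FOXP and FOXO factors were read in the same fit. Of 7 targets of FOXP2, 2 passed at an unadjusted p under 0.05 and 1 at the adjusted threshold. This was *Cntnap2*, a neuronal adhesion gene, with -0.17 ± 0.17 (SD, n = 4; limma adjusted p = 0.0498). Of 12 genes of the insulin and AKT pathway upstream of FOXO1, 0 passed the adjusted threshold by limma and 1, the kinase gene *Sgk1*, passed at an unadjusted p under 0.05, as did 20.2% of all genes tested. The brightest of them, *Akt1* and *Igf1r*, which encode the kinase and a receptor, differed by 0.02 ± 0.01 and -0.08 ± 0.22 (SD, n = 4 each). Of 15 targets of FOXO factors, the cell cycle inhibitor *Cdkn1a* was higher by 0.25 (adjusted p = 0.00722) and *Fbxo32*, a ubiquitin ligase gene, fell by 0.29 (adjusted p = 0.0217). The other 13 did not pass the adjusted threshold, and 5 of the 15 passed at an unadjusted p under 0.05.

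Markers of glia were read beside *Foxd3*. All 13 Schwann precursor markers read here gave signal well above background in each of the 8 pools. Of these, 5 were called lower, where 0.309% of all genes tested were. *Fabp7*, a lipid-binding protein of glial precursors, fell by 1.03 on the log2 scale (limma adjusted p = 5.03e-05), and *Dhh*, the hedgehog ligand of Schwann cells, fell by 0.88 (adjusted p = 7.94e-05). *Ngfr*, the neurotrophin receptor, fell by 0.74 (adjusted p = 0.000122), and the adhesion gene *Cdh19* fell by 0.63 (adjusted p = 0.000459). *Ednrb* was the fifth. Without array 3, *Ednrb* and *Cdh19* were no longer called and the count was 3, and without array 4, or with the probes of a gene averaged, *Ednrb* was lost and the count was 4.

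The markers of the list differed in size of change. The ratio was below 0 for 11 of the 13, with a list median of -0.10, and *Sox10*, the factor that defines the glial lineage, differed by 0.01 ± 0.08 (SD, n = 4; limma adjusted p = 0.917). The mean log2 level over the 13 markers ran from 10.33 to 10.40 in mutant and from 10.62 to 10.78 in control pools, and these ranges did not overlap. The linear sum of their levels, which the brightest markers set, ran from 67346 to 69853 in mutant and from 78303 to 82496 in control pools. These sums did not overlap either, but the gap between them leans on *Fabp7*. The brightest markers were *Sox10* and *Fabp7*, with mean log2 levels of 15.35 and 13.05 in mutant and 15.34 and 14.08 in control pools. *Sox10* and *Fabp7* are also made by cochlear epithelium. The authors list *Fabp7* among genes lower in these mutants that had been described in the inner compartment of the hearing organ. For *Ngfr*, the authors use its protein at a later stage as a marker of pillar cells, which lie in the hearing organ. Whether the *Foxd3* value follows the amount of glia in the pools was not tested.

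Neurons were read in the same way, since the spiral ganglion had been dissected away. Of 16 neuron markers 14 were tested, and each of the 14 was detected in every pool. *Elavl3*, an RNA-binding protein of neurons, fell by 1.08 (limma adjusted p = 0.000101). *Pou4f1*, a factor of sensory neurons, fell by 0.75 (adjusted p = 0.000172), and the neurofilament gene *Nefm* fell by 0.72 (adjusted p = 0.000397). These 3 were called lower, where 0.309% of all genes tested were, and the list's median was -0.28. By adjusted p alone 8 of the 14 were lower and 2 were higher, where 2.92% of all genes were lower and 2.26% higher. The higher ones were *Isl1* with 0.20 (limma adjusted p = 0.0245) and *Ntrk3* with 0.16 (adjusted p = 0.0385). *Neurod1* and *Neurog1*, which start the neuronal programme, were not bright enough to be tested. The mean log2 level over the 14 markers ran from 10.61 to 10.77 in mutant and from 10.86 to 11.06 in control pools, and these ranges did not overlap. Their linear sum ran from 65648 to 71211 in mutant and from 66652 to 69551 in control pools. These sums overlapped and were lower in the mutant on 2 arrays, so the separation depends on the measure. The part of neuronal RNA in the *Foxa2* and *Foxd3* values was not tested.

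Other cell types showed smaller differences. Of 6 melanocyte, 5 blood and 6 macrophage markers 0 passed the adjusted threshold by limma. At an unadjusted p under 0.05, 2, 3 and 0 passed, where 20.2% of all genes tested did. The list medians were 0.04, 0.13 and 0.02. The brightest 2 of each list were *Dct* with 0.05 ± 0.05 and *Pmel* with 0.09 ± 0.03, *Hba-a1* with 0.19 ± 0.48 and *Hbb-bh1* with 0.15 ± 0.43, and *Csf1r* with 0.04 ± 0.07 and *Cx3cr1* with -0.04 ± 0.18 (SD, n = 4 each). Of 13 periotic mesenchyme markers *Col1a1* passed, with 0.27 (limma adjusted p = 0.00448), and on 4 of 4 arrays their mean log2 level was higher in mutants. It ran from 13.04 to 13.22 in mutant and from 12.92 to 13.13 in control pools, and these ranges overlapped. Their linear sums, from 396128 to 413154 in mutant and from 349768 to 380902 in control pools, did not overlap. Of 10 endothelial markers *Cldn5* with 0.21 (adjusted p = 0.0167) and *Esam* with 0.16 (adjusted p = 0.0473) passed. The mean log2 level of the 10 markers ran from 11.48 to 11.59 in mutant and from 11.40 to 11.47 in control pools. These ranges did not overlap, with mutants higher. Their linear sums, from 50204 to 55546 in mutant and from 46404 to 51410 in control pools, overlapped. Of the 16 cochlear epithelium markers 4 were lower by adjusted p, where 2.92% of all genes tested were. They were led by the Notch modifier *Lfng* with -0.52 (limma adjusted p = 0.00031) and the growth factor *Fgf10* with -0.47 (adjusted p = 0.000308). The Notch target *Hey2* with 0.36 (adjusted p = 0.000969) and *Gata3* with 0.34 (adjusted p = 0.00929) were higher.

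**Figure D4:**
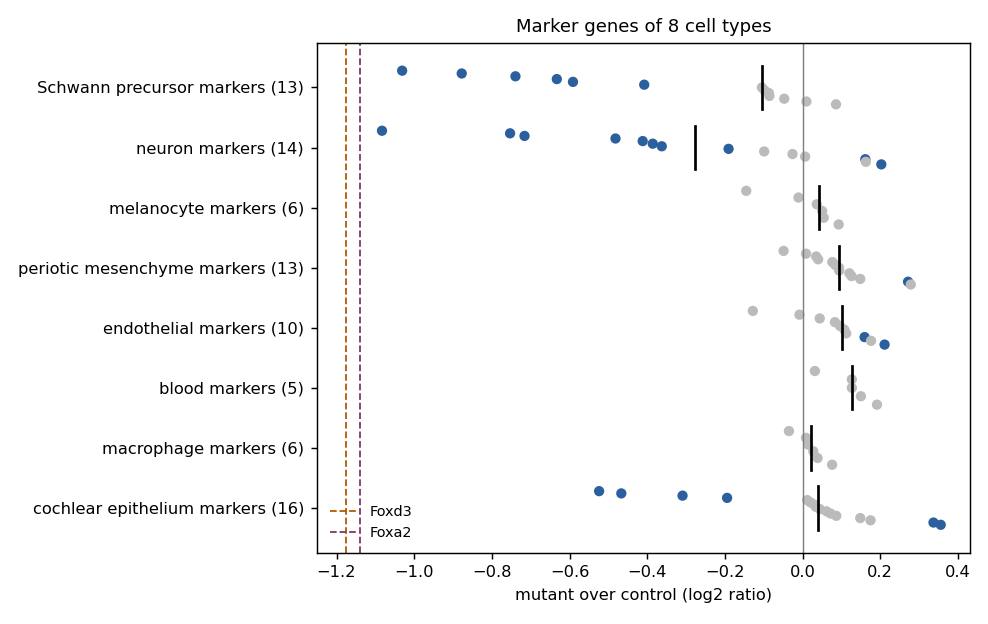
Log2 ratio of mutant to control for marker genes of 8 cell types, 1 point per tested gene, blue where the limma adjusted p was under 0.05, with the list median as a black bar and the number of genes in brackets. Dashed lines give *Foxd3* and *Foxa2*. The points furthest to the left belong to the Schwann precursor and neuron lists, and the medians of the other 6 lists lie between 0.02 and 0.13.

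The genes whose levels across the 8 pools were most like those of *Foxa2* and *Foxd3* were found by Pearson's r after the mean of each dye had been removed. The 8 pools share 4 arrays and fall into mutants and controls, so r mainly ranks genes with the same split between genotypes, and it is given as a description. For *Foxd3* these were *Lsamp* (r = 0.998), which encodes a neuronal adhesion protein, *Dhh* (r = 0.996) and *Cdh19* (r = 0.995), and the latter 2 are on the list of Schwann precursor markers. For *Foxa2* they were *Paqr6* (r = 0.994), the neuronal adhesion gene *Nrcam* (r = 0.993) and *Styk1* (r = 0.993). On the log2 scale the differences between mutant and control were -0.57 for *Lsamp*, -0.78 for *Nrcam*, -0.30 for *Paqr6* and -0.23 for *Styk1*. *Nrcam*, like *Dhh* and *Cdh19*, was called lower, and *Lsamp*, *Paqr6* and *Styk1* were not called.

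How the background was removed set the size of the *Foxa1* and *Foxa2* ratios, which come from dim probes, and also moved the *Foxd3* ratio. With the scanner's own processed signals the ratio was -1.46 for *Foxa1*, -2.80 for *Foxa2* and -1.60 for *Foxd3*, and with a smaller normexp offset of 10 it was -0.77, -1.61 and -1.36. In the deposited series table it was -1.06, -2.06 and -1.60. In these 3 settings *Foxa1* was also called lower, which made 3 of the 8 genes, while among all genes 117, 86 and 99 were called lower in place of 65. Across the 14 alternatives that gave a value for *Foxa1* and *Foxa2*, and the 15 for *Foxd3*, each ratio stayed below 0. Some of them left the ratios of *Foxa2* and *Foxd3* unchanged at -1.14 and -1.17. These were no filter on dim probes, the mean over tested probes, no dye term and the separate-channel fits. They could not move these ratios, since each gene had 1 tested probe and the dyes were balanced. Leaving out 1 array at a time moved *Foxa1* between -0.57 and -0.47, *Foxa2* between -1.19 and -1.08 and *Foxd3* between -1.24 and -1.11.

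**Figure D5:**
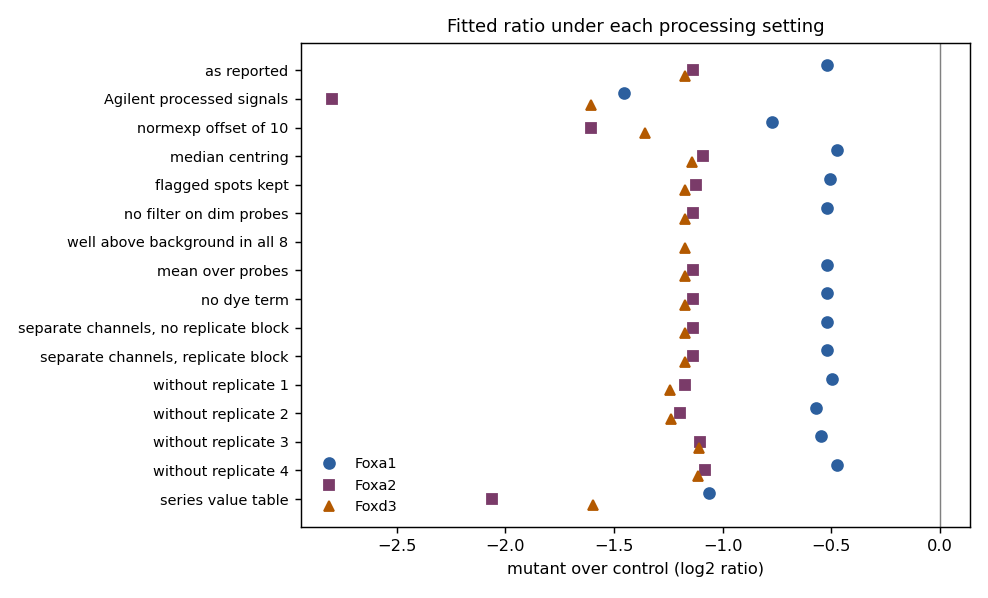
Fitted log2 ratio of mutant to control for *Foxa1*, *Foxa2* and *Foxd3* as reported and under each alternative way of processing the arrays. All values lie below 0. *Foxa1* and *Foxa2* have no value where all 8 measurements had to be well above background, and *Foxa2* ranges from -2.80 to -1.08.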

How the data were processed

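RNA from pooled cochlear ducts was hybridised by the authors in dual-colour mode to Agilent mouse arrays, 1 mutant and 1 control pool per array. The deposited scanner files, written by Agilent Feature Extraction 10.7.3.1, hold intensity values per spot with mm9 probe positions. The deposited series table holds, per probe, mutant relative to control as a fold change with a sign, used as a score in an alternative only. Its scale was inferred from the values, which are never below 1 in size and correlate with the ratios here at r = 0.882 to 0.913, and its normalisation is not given in the sources used here. Mean signals were corrected with normexp (offset 50) and normalised by loess within arrays in limma 3.58.1 (R 4.3.3). Flagged spots were left out, and spots of a probe were averaged. A spot counted as well above background by the scanner's flag, and a probe was tested if at least 4 of 8 channel measurements were. The brightest tested probe stood for a gene, so 21042 of 29924 genes were tested. Ratios were turned to mutant over control by the dye labels and fitted with lmFit and eBayes with a dye term, with Benjamini-Hochberg adjustment over all tested genes, in place of the SAM test of the methods. Levels per channel were scaled with Aquantile. For a gene not well above background in 1 group, the bound sets the other group's mean against, on each array, the higher of the lowest signal well above background and the probe's own value. The number of arrays limits the precision. Pools are called independent in the methods, and all 4 arrays share 1 slide and 1 scan.

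Members and lists were chosen with earlier results of these data known. Named were all members, other forkhead genes that passed the adjusted p with *Foxi1* to *Foxi3*, at most 4 passing genes of each other list with the largest change (or its 2 brightest), 3 genes most like each called member, and *Tbx2*, *Sox2* and *Esr1*. *Ednrb*, *Sox10*, *Isl1*, *Ntrk3* and *Sgk1*, and genes named as not tested, were added after their values were seen. A few genes of the lists are not reported here and were left out of the list counts, medians and levels. Pool numbers pair mutant and control because they share an array, which the ratio uses. Steps were tested on simulated data.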

Additional observations from a re-analysis of the deposited data

Results flagged for a closer look

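*Foxc1* was singled out because 1 of its 4 arrays stood apart. The log2 ratio of mutant to control was 0.03 on array 3, from males, and 0.14 to 0.16 on the other 3. The gap made up 0.840 of the range of the 4 values. Of 24 groups of 4 examined in this way 1 was singled out, and chance gives about 1 in 20.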

How the results depend on the processing

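Of 613 values recomputed under alternatives, 596 stayed on their side or within the spread, 17 moved and 0 changed direction. Counts could shift somewhat and still fall among the 596. With the smaller offset, for example, members called lower went from 2 to 3 and all genes called lower from 65 to 86. Many of the values are list counts that were 0 as reported, and some settings, such as the fit without a dye term, could not move a ratio. With the scanner's processed signals 52 genes were called higher and 117 lower, against 28 and 65, and 1 other forkhead gene (*Foxn4*) and 1 cochlear epithelium marker (*Lfng*) were called lower. With the series values, 99 genes were called lower, and again 1 forkhead gene (*Foxn4*) and 1 epithelium marker (*Lfng*). When all 8 measurements had to be well above background, 1 member, *Foxd3*, was called lower, because *Foxa1* and *Foxa2* were no longer tested. Leaving out each array in turn gave 27 to 34 genes higher, 61 to 69 lower, 2 to 2 members lower, and 3 to 5 Schwann precursor markers lower. Fitted as separate channels, 28 genes were higher and 65 lower with the array as a replicate block, and 23 and 53 without the replicate block, with 2 members lower in both. *Elavl3* was not called without the block. The block changed no call among the 8 genes. A slide or scan block was not run, since all arrays share 1 slide and 1 scan. The processed-signal and offset settings differ most for probes near background, which limits the size of the *Foxa1* and *Foxa2* ratios. The size of the *Foxd3* ratio also depended on the setting, at -1.17 as reported and -1.60 with the scanner's processed signals.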
